A study of Homo sapiens with 6 samples.

Results

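The imprinted genes of human chromosome 11p15 described here are IGF2, H19, HOTS, CDKN1C, KCNQ1OT1 and PHLDA2. They are 6 of the 27961 genes in the count files, and all 6 had enough counts to be tested. They were chosen by name, as genes of the 11p15 imprinted domains, with their changes between the hairpin groups already known. Their levels and fold changes are therefore given as a description, with no test, and tests are given for other genes only.

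The cells were SH-SY5Y, a line from a human neuroblastoma, a tumour of the sympathetic lineage, infected with lentivirus that carried a short hairpin RNA. The 6 libraries formed 3 groups of 2: 1 hairpin against TARDBP, the gene of the RNA-binding protein TDP-43; control hairpin 1 (SHC007); and control hairpin 2 (SHC016). Cells of every group received 8 µg/mL polybrene and were selected with 2 µg/mL puromycin for 3 days, starting 48 hours after infection. Since a single hairpin was used against TARDBP, its effects on other transcripts cannot be told apart from those of lower TARDBP. Nothing in the labels tells if a group's libraries were separate cultures, so the spread between them may be technical.

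Imprinted genes are transcribed mainly from the copy inherited from 1 parent. The 11p15 region holds a pair of neighbouring domains. In the first, an imprinting centre that is methylated on the paternal copy and bound by CTCF on the maternal copy lets the paternal IGF2 and the maternal H19 use shared enhancers. In the second, the centre lies at the start of KCNQ1OT1, a noncoding RNA made from the paternal copy, which silences CDKN1C, PHLDA2 and other genes beside it, so that these are made from the maternal copy. Imbalance of these domains is known from the overgrowth and growth restriction syndromes of Beckwith-Wiedemann and Silver-Russell, and IGF2 is a known growth factor of neuroblastoma cells. These counts do not separate the parental copies.

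H19 RNA is also the precursor of the microRNA miR-675, whose locus lies inside the H19 transcript and has a row of its own in the files. Its mature forms are shown because that row is described beside H19 below; capitals mark the seed, bases 2 to 8 (RefSeq, GRCh38.p14, chromosome 11, minus strand, chr11:1996800-1996822 for the 5p form and chr11:1996768-1996787 for the 3p form).
hsa-miR-675-5p: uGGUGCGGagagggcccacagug
hsa-miR-675-3p: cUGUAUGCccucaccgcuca
The 5p seed was shared with 1 other of the 2370 mature human miRNAs in the table, and the 3p seed with 0 others. The libraries were made from ribosomal RNA-depleted total RNA, so the MIR675 row counts reads over the locus within H19 and not the mature miRNA.

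The RefSeq table held a promoter window for H19 and none for the other members. It is shown because H19 and IGF2 moved together, and capitals mark its CG pairs (GRCh38.p14, chr11:2001217-2001516, minus strand, 250 bases before to 50 after the start). Imprint methylation lies on CG pairs, but methylation was not measured here, either in this window or in the imprinting centre.
H19 promoter: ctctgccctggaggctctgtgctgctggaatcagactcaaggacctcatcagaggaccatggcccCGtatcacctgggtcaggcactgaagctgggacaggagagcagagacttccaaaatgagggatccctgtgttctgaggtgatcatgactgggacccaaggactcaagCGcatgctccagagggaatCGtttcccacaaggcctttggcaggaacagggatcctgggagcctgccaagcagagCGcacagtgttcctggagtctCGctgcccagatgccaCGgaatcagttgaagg
This window held 6 CG pairs, against a median of 14 over all 35116 promoter windows, of which 36.8% had 6 or fewer. Searched on both strands, it held 3 matches of the E-box letters CANNTG, which 68.7% of windows contain. It held no match of GGGCGG (45.0% of windows), CCAAT (34.6%), TATAAA (11.5%) or the CTCF core letters GGNGGCAG (16.7%), which says only that these letters are not in this window.

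TARDBP itself averaged 21.4 ± 3.62 CPM under the TARDBP hairpin, 76.6 ± 6.03 CPM under control hairpin 1 and 87.1 ± 7.92 CPM under control hairpin 2 (SD, n = 2 each; CPM is the count scaled to a common library size, with TMM factors). Its log2 fold change against the mean of both controls was -1.93 (SE 0.126, adjusted p = 1.68e-05, edgeR quasi-likelihood test), in the direction of the labels. Library totals were 18605745 to 21698339 counts, and 17163 genes and repeat families were tested. At an adjusted p below 0.05 against the mean of both controls, 23.9% of these were higher and 24.3% lower under the TARDBP hairpin. Of 14 noradrenergic neuroblastoma markers 13 were tested, of which 1 rose and 10 fell, and their summed level was 1066 to 1209 CPM under the TARDBP hairpin, 2150 to 2414 CPM under control hairpin 1 and 1556 to 1751 CPM under control hairpin 2. PHOX2A, HAND2 and GATA3, regulators that define this cell type, were detected in every library, while TH, which makes the precursor of noradrenaline, was at 0 in both TARDBP hairpin libraries and at or below 0.147 CPM in the 4 control libraries.

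IGF2, the paternally expressed growth factor that signals through the IGF1 and insulin receptors, was close to absent under the TARDBP hairpin. It had 0.414 and 0.260 CPM under the TARDBP hairpin (8 and 5 counts), 91.5 and 110.0 CPM under control hairpin 1, and 7.63 and 18.1 CPM under control hairpin 2. The 3 groups did not overlap, and the TARDBP hairpin was lowest, control hairpin 2 in between and control hairpin 1 highest. The log2 fold change was -8.20 (SE 0.504) against control hairpin 1, a level 294-fold lower, and -5.24 (SE 0.566) against control hairpin 2, a level 37.8-fold lower. The TARDBP hairpin level was 0.334% of that under control hairpin 1 (0.178 to 0.571%) and 2.56% of that under control hairpin 2 (1.35 to 4.41%), where the 95% exact intervals cover counting error only. IGF2 also differed between the control hairpins, by -2.96 (SE 0.315) for control hairpin 2 against control hairpin 1, a level 7.77-fold lower.

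H19, the maternally expressed noncoding RNA of the same domain, followed the same order of groups. It had 14.7 and 12.8 CPM under the TARDBP hairpin (284 and 247 counts), 1419 and 1782 CPM under control hairpin 1, and 141.8 and 318.8 CPM under control hairpin 2. Again no library of a group reached the level of the next group. Its log2 fold change was -6.86 (SE 0.401) against control hairpin 1, 116-fold lower, and -4.06 (SE 0.359) against control hairpin 2, 16.7-fold lower. Between the controls it was -2.80 (SE 0.325) for control hairpin 2 against control hairpin 1, 6.95-fold lower.

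HOTS is known as a transcript from the strand opposite to H19 that encodes a nucleolar growth-inhibitory protein. It had 2.69 and 1.30 CPM under the TARDBP hairpin (52 and 25 counts), 42.5 and 73.4 CPM under control hairpin 1, and 6.58 and 16.8 CPM under control hairpin 2, with no overlap of groups. The log2 change was -4.86 (SE 0.514) against control hairpin 1, -2.56 (SE 0.536) against control hairpin 2, and -2.30 (SE 0.414) for control hairpin 2 against control hairpin 1. The kit keeps strand, but the strand setting of the counting is unknown here, so HOTS and H19 reads cannot be told apart with certainty.

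**Figure D1:**
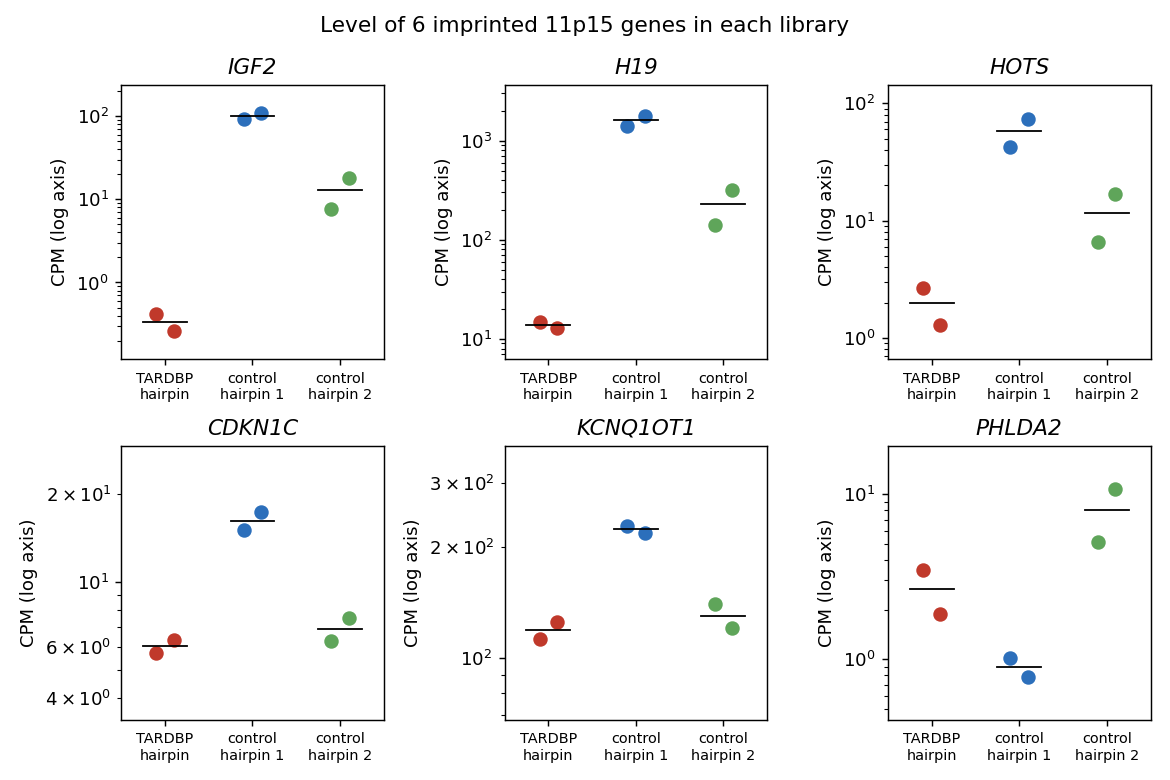
Level of each of the 6 genes in CPM on a log axis; each point is 1 library and each bar the mean of the 2 libraries of a group. IGF2, H19 and HOTS form 3 separate levels, lowest under the TARDBP hairpin; CDKN1C and KCNQ1OT1 overlap between the TARDBP hairpin and control hairpin 2; PHLDA2 is highest under control hairpin 2.

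IGF2, H19 and HOTS were thus the 3 of 6 members in which each TARDBP hairpin library lay below all 4 control libraries, a pattern shown by 22.8% of all tested genes and families. The same 3 were lowest under the TARDBP hairpin, intermediate under control hairpin 2 and highest under control hairpin 1 with no overlap, as were 7.59% of all tested. Since the members were selected on these comparisons, nothing is read from either share. The libraries of control hairpin 2 spread widely for these genes: the higher library had 2.38 times the IGF2, 2.25 times the H19 and 2.55 times the HOTS level of the lower, and it was replicate 2 for all 3. Without control hairpin 2 replicate 2, the log2 fold change of the TARDBP hairpin against control hairpin 2 was -4.51 for IGF2, -3.40 for H19 and -1.76 for HOTS, and that of control hairpin 2 against control hairpin 1 was -3.71, -3.49 and -3.13 in the same order of genes. Without TARDBP hairpin replicate 1, which had the higher HOTS level, the HOTS value was -5.48 against control hairpin 1 and -3.18 against control hairpin 2.

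The summed level of the cell line's markers, of which HAND2 was the most abundant in every library, had the same order of groups as these 3 genes. The noradrenergic sum was lowest under the TARDBP hairpin, intermediate under control hairpin 2 and highest under control hairpin 1, as given above. The summed level of 18 fibroblast and mesenchymal markers, which are genes of cells with another state, had a different order: 3398 to 3623 CPM under the TARDBP hairpin, 4312 to 4661 CPM under control hairpin 1 and 7942 to 8378 CPM under control hairpin 2. Of these 16 were tested, of which 3 rose and 11 fell against the mean of both controls (23.9% and 24.3% of all tested). PRRX1 was at 0 in all 6 libraries. The part of either marker group in the levels of IGF2, H19 and HOTS was not tested, and in bulk RNA fewer cells of a type and less RNA per cell cannot be told apart.

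Ratios between rows of the IGF2 and H19 locus were compared within each library, which removes the library's scale. IGF2 counts were 2.82 and 2.02% of H19 counts under the TARDBP hairpin, 6.45 and 6.17% under control hairpin 1, and 5.38 and 5.69% under control hairpin 2. The ratio was lowest in the TARDBP hairpin libraries, where it rested on 8 and 5 IGF2 counts, and it differed little between the control hairpins although H19 itself differed 6.95-fold there. HOTS counts were 18.3 and 10.1% of H19 counts under the TARDBP hairpin, 2.99 and 4.12% under control hairpin 1, and 4.64 and 5.26% under control hairpin 2. Both TARDBP hairpin libraries were above every control library, so the HOTS row was less reduced than the H19 row. This rested on 52 and 25 HOTS counts, and some of them may be H19 reads, since the strand setting is unknown. Each ratio depends on the lengths of its rows and is read only between libraries.

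The rows that overlap these members moved with them. MIR675 counts were 4.58 and 6.48% of H19 counts under the TARDBP hairpin (13 and 16 MIR675 counts), 5.33 and 5.66% under control hairpin 1, and 5.83 and 5.60% under control hairpin 2, so that the groups overlapped. INS-IGF2, a readthrough row that shares sequence with IGF2, had 7 and 5 counts under the TARDBP hairpin, where IGF2 had 8 and 5; INS-IGF2 counts were 87.8 and 86.7% of IGF2 counts under control hairpin 1, and 89.0 and 93.5% under control hairpin 2. How the counting split reads between such rows is likewise unknown, and they are not independent of the members.

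**Figure D2:**
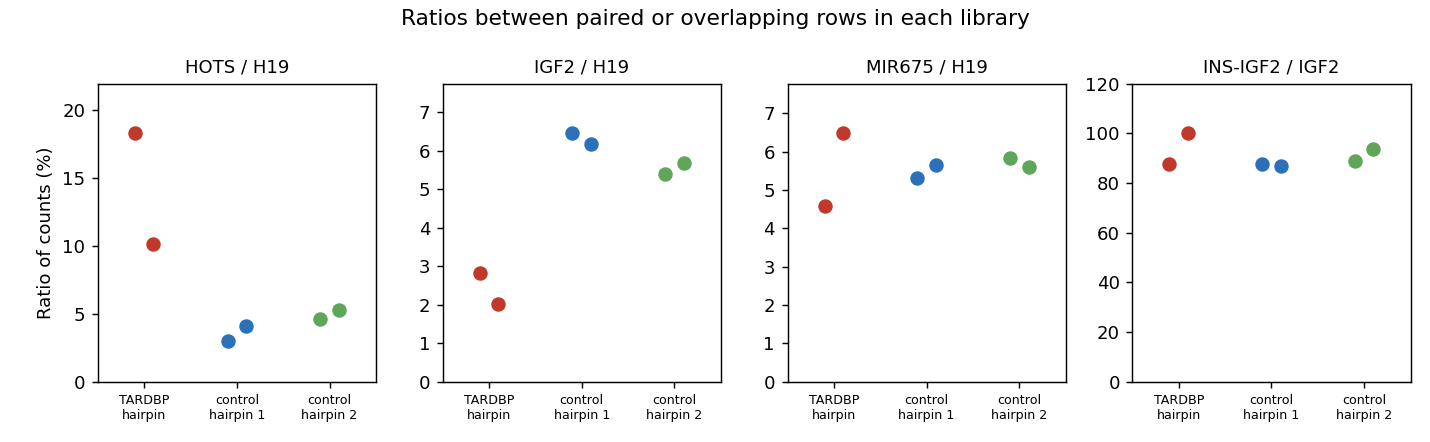
Counts of 1 row as a percentage of the counts of another in each library, on axes that start at 0; each point is 1 library. HOTS over H19 is 18.3 and 10.1% under the TARDBP hairpin and 2.99 to 5.26% in the 4 control libraries; IGF2 over H19 is lowest under the TARDBP hairpin; MIR675 over H19 overlaps between all 3 groups.

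CDKN1C encodes p57, an inhibitor of cyclin-dependent kinases that holds cells out of the cycle, and is the growth-limiting gene of the second domain. It had 5.69 and 6.34 CPM under the TARDBP hairpin, 15.04 and 17.33 CPM under control hairpin 1, and 6.26 and 7.54 CPM under control hairpin 2. It was lower under the TARDBP hairpin than under control hairpin 1, while the TARDBP hairpin and control hairpin 2 overlapped. The log2 change was -1.43 (SE 0.162) against control hairpin 1, 2.69-fold lower, and -0.20 (SE 0.170) against control hairpin 2, where the level was 86.7% of the control (72.5 to 104%, counting error only). Between the controls it was -1.23 (SE 0.159) for control hairpin 2 against control hairpin 1, 2.34-fold lower.

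KCNQ1OT1, the noncoding RNA that silences CDKN1C on the paternal copy, had the same order of groups. It had 112.5 and 125.2 CPM under the TARDBP hairpin, 228.0 and 219.3 CPM under control hairpin 1, and 139.8 and 120.8 CPM under control hairpin 2. Only control hairpin 1 stood apart. Its log2 fold change was -0.91 (SE 0.103) against control hairpin 1, -0.13 (SE 0.103) against control hairpin 2, and -0.78 (SE 0.103) for control hairpin 2 against control hairpin 1. The silencer and its target were therefore both low in the same 4 libraries, and CDKN1C counts were 5.06 and 5.06% of KCNQ1OT1 counts under the TARDBP hairpin, 6.60 and 7.91% under control hairpin 1, and 4.48 and 6.24% under control hairpin 2.

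The sum of Schwann and glial lineage markers had the order of groups seen in CDKN1C and KCNQ1OT1, but only with NGFR included. Their summed level was 9.16 and 10.3 CPM under the TARDBP hairpin, 26.3 and 23.9 CPM under control hairpin 1, and 10.8 and 10.2 CPM under control hairpin 2. Of 10 markers 3 were tested, of which 1 rose and 1 fell, and FOXD3 was at 0 in all 6 libraries. Without NGFR, the most abundant of them, the sum was 4.86 and 4.31 CPM under the TARDBP hairpin, 3.77 and 3.72 CPM under control hairpin 1, and 3.69 and 3.58 CPM under control hairpin 2. The 8 muscle markers, from a tissue known for high H19, summed to 6.10 and 8.67 CPM under the TARDBP hairpin, 3.62 and 3.04 CPM under control hairpin 1, and 4.84 and 4.57 CPM under control hairpin 2. Of these 2 were tested, 1 rose and none fell, and MYF5 was at 0 in all 6 libraries.

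PHLDA2, a maternally expressed protein with a lipid-binding domain that limits growth of the placenta, had an order of its own. It had 3.47 and 1.87 CPM under the TARDBP hairpin (67 and 36 counts), 1.02 and 0.783 CPM under control hairpin 1 (20 and 16 counts), and 5.16 and 10.8 CPM under control hairpin 2. The TARDBP hairpin libraries lay between the control groups with no overlap, as did those of 6.78% of all tested genes and families. The log2 fold change was 1.56 (SE 0.509) against control hairpin 1, 2.95-fold higher, and -1.58 (SE 0.389) against control hairpin 2, 3.00-fold lower. For control hairpin 2 against control hairpin 1 it was 3.15 (SE 0.455), 8.85-fold higher. Without control hairpin 2 replicate 2 the value was -0.99 for the TARDBP hairpin against control hairpin 2 and 2.52 between the controls.

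**Figure D3:**
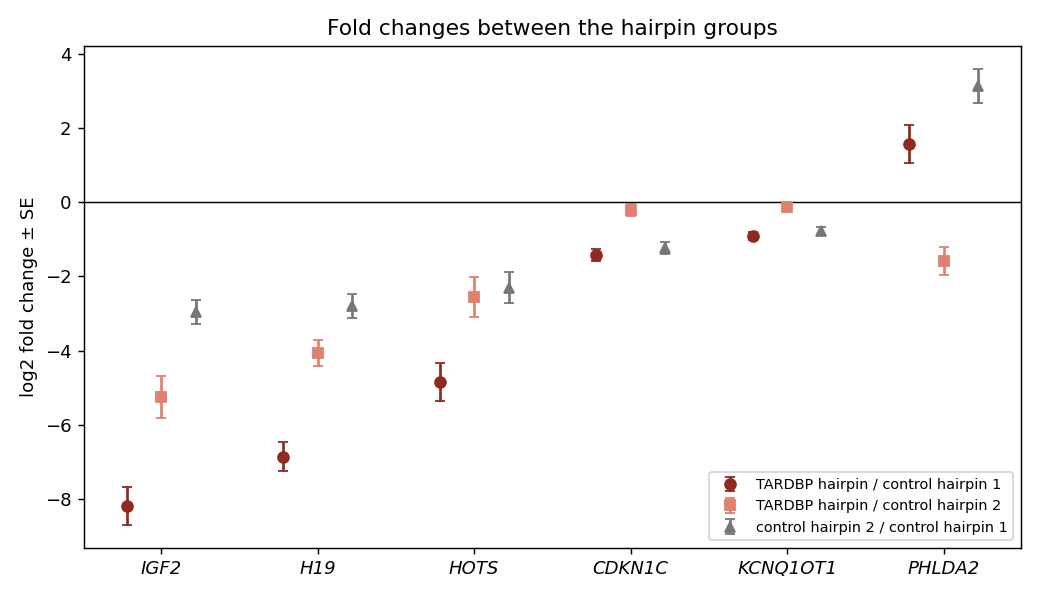
Log2 fold change with its standard error for each of the 6 genes, for the TARDBP hairpin against each control hairpin and for control hairpin 2 against control hairpin 1. IGF2, H19 and HOTS lie below 0 in all 3 comparisons, CDKN1C and KCNQ1OT1 lie near 0 against control hairpin 2, and PHLDA2 changes sign between the control hairpins.

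Against control hairpin 1, 5 of 6 members had both TARDBP hairpin libraries below both control libraries (34.5% of all tested), and 1, PHLDA2, had both above (37.4%). Against control hairpin 2 it was 4 of 6 below, namely IGF2, H19, HOTS and PHLDA2 (37.8%). Control hairpin 2 lay below control hairpin 1 in 5 of 6 members (37.8%) and above it in 1, PHLDA2 (37.0%). The median log2 fold change of the members was -3.14 for the TARDBP hairpin against control hairpin 1 and -2.07 against control hairpin 2, and -1.76 for control hairpin 2 against control hairpin 1, against medians of 0.03, 0.02 and -0.01 over all tested. These comparisons share libraries.

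Against the mean of both controls, the median of the 6 members was -2.26, against 0.04 over all tested. The log2 fold change was -6.72 (SE 0.502) for IGF2, -5.46 (SE 0.367) for H19 and -3.71 (SE 0.489) for HOTS. It was -0.81 (SE 0.147) for CDKN1C and -0.52 (SE 0.0908) for KCNQ1OT1, values that average a difference from control hairpin 1 with a smaller one from control hairpin 2. For PHLDA2 it was -0.01 (SE 0.491), which averages opposite differences.

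Apart from rows that overlap a member, the tested 11p15 neighbours that passed the test had log2 fold changes between -0.70 and 0.49. Of 5 tested neighbours of IGF2 and H19, all 5 fell against the mean of both controls (24.3% of all tested), but MIR675, INS-IGF2 and IGF2-AS overlap a member. MIR675 had a log2 fold change of -5.49 (SE 0.419, adjusted p = 3.41e-05) and INS-IGF2 of -6.68 (SE 0.524, adjusted p = 3.82e-05). IGF2-AS, the antisense RNA of IGF2, had 0 counts in both TARDBP hairpin libraries, where a count of 0 allows up to 3 counts, 17 and 28 counts under control hairpin 1, and 0 and 3 counts under control hairpin 2 (adjusted p = 0.0320). The others were CTSD, a lysosomal protease, at -0.40 (SE 0.118, adjusted p = 0.0228), and MRPL23, a mitochondrial ribosomal protein, at -0.70 (SE 0.233, adjusted p = 0.0365). MRPL23 averaged 12.4 CPM under the TARDBP hairpin, 13.1 CPM under control hairpin 1 and 30.9 CPM under control hairpin 2.

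Of 10 tested neighbours of CDKN1C, KCNQ1OT1 and PHLDA2, 1 rose and 3 fell (23.9% and 24.3% of all tested), with a median of -0.16. CARS, a cysteine tRNA synthetase, fell by 0.70 in log2 (SE 0.121, adjusted p = 0.00198), CD81, a membrane tetraspanin, by 0.53 (SE 0.154, adjusted p = 0.0204), and OSBPL5, a lipid transfer protein, by 0.41 (SE 0.126, adjusted p = 0.0259). SLC22A18, a maternally expressed transporter that lies next to PHLDA2, rose by 0.49 (SE 0.12, adjusted p = 0.0116). KCNQ1, the potassium channel gene inside which KCNQ1OT1 is made, did not pass the test, at -0.70 (SE 0.278, adjusted p = 0.0684), and its reads cannot be told apart from those of KCNQ1OT1 with certainty. All other tested neighbours, CD81-AS1, TSSC4, TRPM5, NAP1L4 and ZNF195, did not pass either.

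Several of these calls rested on single libraries. Without TARDBP hairpin replicate 1 the adjusted p was 0.0963 for SLC22A18 and 0.146 for OSBPL5, and without TARDBP hairpin replicate 2 it was 0.179 for CTSD, 0.159 for CD81, 0.175 for MRPL23 and 0.0977 for IGF2-AS. MRPL23 and IGF2-AS were each lost without 4 different libraries, OSBPL5 without 3 and by DESeq2 (adjusted p = 0.0583), and CD81 also without control hairpin 1 replicate 2 (0.0501).

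**Figure D4:**
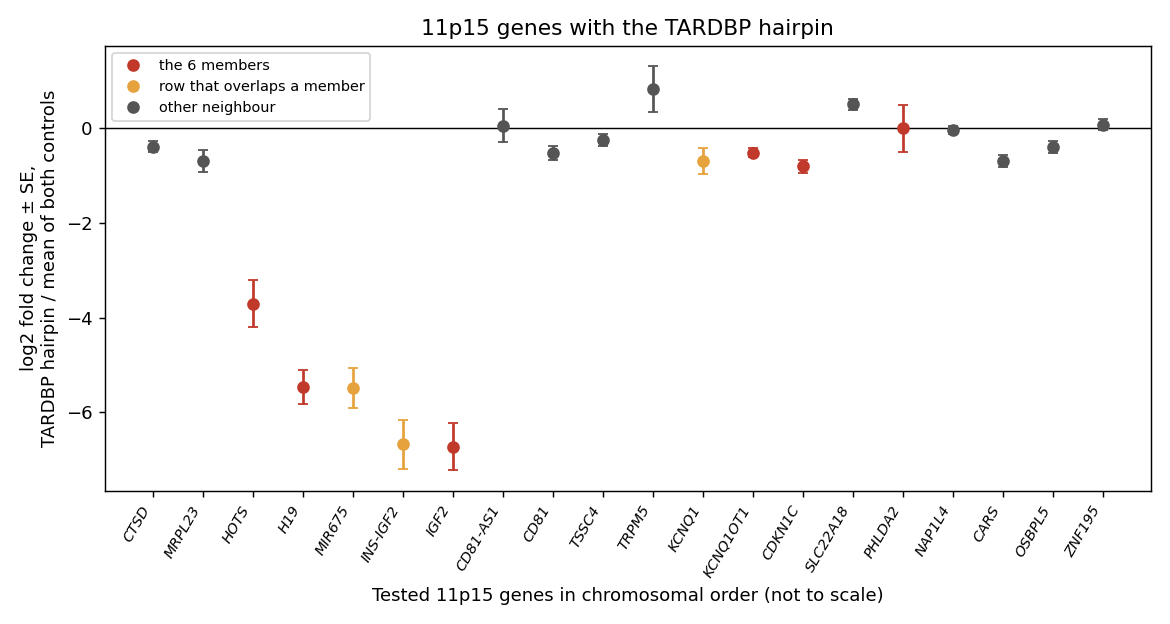
Log2 fold change with its standard error for the TARDBP hairpin against the mean of both control hairpins, for members and tested neighbours in chromosomal order, not to scale; IGF2-AS, with 0 counts in both TARDBP hairpin libraries, is left out, and HOTS is set beside H19. IGF2, H19, HOTS and the rows that overlap IGF2 and H19 lie at -3.71 or lower, while KCNQ1, which overlaps KCNQ1OT1, is at -0.70.

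For control hairpin 1 alone, 21.1% of all tested genes and families were higher and 21.8% lower under the TARDBP hairpin; for control hairpin 2 alone, 24.0% were higher and 26.2% lower. Control hairpin 2 was higher than control hairpin 1 in 22.8% and lower in 20.4%. Set against these shares, the 10 tested neighbours in the second domain gave 0 higher and 1 lower call against control hairpin 1. They gave 1 higher and 3 lower against control hairpin 2, and 0 in either direction between the controls by edgeR. CDKN1C, KCNQ1OT1 and PHLDA2 in their midst had log2 differences of -1.23, -0.78 and 3.15 between the controls. These members were selected with such differences known, so nothing is read from their contrast with the neighbours.

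By the main test, factors that read and maintain imprints moved in both directions under the TARDBP hairpin. Of 20 tested, 3 rose and 9 fell against the mean of both controls (23.9% and 24.3% of all tested), with a median of -0.15. UHRF1, which brings DNA methyltransferase to newly copied DNA, fell by 2.11 (SE 0.117, adjusted p = 9.33e-06), with 11.7 CPM under the TARDBP hairpin, 30.3 CPM under control hairpin 1 and 84.4 CPM under control hairpin 2. The de novo methyltransferases DNMT3A and DNMT3B fell by 0.71 (SE 0.0755, adjusted p = 0.000162) and 1.63 (SE 0.198, adjusted p = 0.000319), and TET3, which oxidises methylated cytosine, fell by 1.12 (SE 0.0806, adjusted p = 2.68e-05). CTCF, the insulator protein of the IGF2 and H19 centre, was also among the 9 that fell, by 0.48 (SE 0.0805, adjusted p = 0.00168).

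The 3 that rose were EED and SUZ12, subunits of the Polycomb complex that methylates histone H3, and SMCHD1, a silencing factor. EED rose by 0.58 (SE 0.105, adjusted p = 0.00229) and SUZ12 by 0.41 (SE 0.0826, adjusted p = 0.00420). With the 4 control libraries pooled as 1 group, no rise passed by edgeR. Adjusted p was then 0.0577 for EED, 0.334 for SUZ12 and 0.308 for SMCHD1. The 5 factors still called with pooled controls were among the 9 that fell. SMCHD1 rose by 0.21 (SE 0.0693, adjusted p = 0.0365), a call lost without any 1 of the 6 libraries (adjusted p of 0.0766 to 0.180) and by DESeq2 (0.106). Between the controls, 6 of the 20 were higher and 4 lower under control hairpin 2 (22.8% and 20.4% of all tested). UHRF1 was higher by 1.48 there (adjusted p = 7.39e-05), while IGF2 and H19 were lower.

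Among 13 tested factors reported to act on IGF2 or H19 RNA, none rose and 4 fell against the mean of both controls. The shares over all tested were 23.9% and 24.3%. The median of the 13 was -0.18. ELAVL1, an RNA-stabilising protein, fell by 0.86 (SE 0.0840, adjusted p = 0.000112), DICER1, the microRNA-processing enzyme, by 0.48 (SE 0.0742, adjusted p = 0.00105), IGF2BP3, which binds IGF2 mRNA, by 0.36 (SE 0.0727, adjusted p = 0.00402), and LIN28B, which blocks let-7 processing, by 0.36 (SE 0.110, adjusted p = 0.0249). LIN28B averaged 13.3 CPM under the TARDBP hairpin, 10.5 CPM under control hairpin 1 and 28.1 CPM under control hairpin 2, and its call was lost without either TARDBP hairpin library (0.0807 and 0.112), without control hairpin 1 replicate 1 (0.0610) or without control hairpin 2 replicate 1 (0.0655). Against control hairpin 1 there was 1 higher and 1 lower call (21.1% and 21.8% of all tested). Against control hairpin 2 there were 0 higher and 9 lower (24.0% and 26.2% of all tested). Control hairpin 2 was higher than control hairpin 1 in 9 of the 13 and lower in 0 by edgeR (22.8% and 20.4% of all tested).

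By the main test, genes that receive or modulate the IGF2 signal moved in both directions. Of 16 tested receptors, adaptors and binding proteins, 5 rose and 4 fell, with a median of 0.06. Over all tested genes and families 23.9% rose and 24.3% fell, so nothing about IGF genes is read from these counts. INSR, the insulin receptor, which also binds IGF2, fell by 1.48 (SE 0.118, adjusted p = 4.21e-05), with 16.2 CPM under the TARDBP hairpin, 73.3 CPM under control hairpin 1 and 28.1 CPM under control hairpin 2, the order of groups seen for IGF2. The binding proteins IGFBP5 and IGFBP3 rose by 1.20 (SE 0.116, adjusted p = 0.000105) and 1.03 (SE 0.128, adjusted p = 0.000350), and PAPPA2, a protease that releases IGFs from them, rose by 2.58 (SE 0.342, adjusted p = 0.000493).

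The adaptor IRS1 rose by 0.68 (SE 0.147, adjusted p = 0.00571, and 0.0525 without TARDBP hairpin replicate 1). IGF1R, the main signalling receptor of IGF2, rose by 0.22 (SE 0.0746, adjusted p = 0.0407), a call lost without any 1 of the 6 libraries (0.0653 to 0.195), by DESeq2 (0.0898) and with other size factors (0.0535). STC2, an inhibitor of PAPPA, fell by 1.13 (SE 0.155, adjusted p = 0.000591), and IGFBP2 by 0.95 (SE 0.200, adjusted p = 0.00502). With the 4 control libraries pooled as 1 group, no fall passed by edgeR. Adjusted p was then 0.0783 for INSR, 0.207 for STC2, 0.169 for IGFBP2 and 0.417 for PAPPA. The 2 genes still called were IGFBP5 (0.00818) and PAPPA2 (0.0157), which rose. PAPPA fell by 0.61 (SE 0.139, adjusted p = 0.00737, and 0.0645 without TARDBP hairpin replicate 2), but it was higher than control hairpin 1 by 0.62 (adjusted p = 0.0135) and lower than control hairpin 2 by 1.83 (adjusted p = 6.78e-05).

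CDKN1C was set beside the other CDK inhibitors and the proteins they bind. Of 7 other inhibitors, all tested, 2 rose and 3 fell against the mean of both controls (23.9% and 24.3% of all tested), with a median of -0.65. CDKN1A, the p21 inhibitor of the same family as CDKN1C, rose by 1.21 (SE 0.0820, adjusted p = 2.03e-05), with 1540.1 CPM under the TARDBP hairpin, 656 CPM under control hairpin 1 and 675 CPM under control hairpin 2. CDKN1B, the remaining member of that family, rose by 0.30 (SE 0.0833, adjusted p = 0.0175), a call lost without TARDBP hairpin replicate 2 (0.12), control hairpin 1 replicate 2 (0.0520) or control hairpin 2 replicate 1 (0.0566).

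CDKN2D fell by 0.69 (SE 0.169, adjusted p = 0.0101, and 0.0530 without TARDBP hairpin replicate 2). CDKN3, a phosphatase that acts on CDK2, fell by 1.45 (SE 0.410, adjusted p = 0.0189), a call lost without TARDBP hairpin replicate 2 (0.124) or control hairpin 1 replicate 2 (0.0659). CDKN2B fell by 2.82 (SE 0.938, adjusted p = 0.0359) on 2 and 1 counts under the TARDBP hairpin, 18 and 8 counts under control hairpin 1 and 17 and 4 counts under control hairpin 2. It was lost without either TARDBP hairpin library (0.105 and 0.167), without control hairpin 1 replicate 1 (0.0859) or without control hairpin 2 replicate 1 (0.100).

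Of 12 tested cyclins and kinases, 1 rose and 8 fell (23.9% and 24.3% of all tested), with a median of -1.45. CDK6 fell by 1.95 (SE 0.112, adjusted p = 1.08e-05), CCND1, its cyclin D partner, by 1.29 (SE 0.0774, adjusted p = 1.22e-05), and the S-phase and mitotic cyclins CCNA2 and CCNB1 by 1.86 (SE 0.176, adjusted p = 9.38e-05) and 2.34 (SE 0.229, adjusted p = 0.000110). CCNA1 rose by 1.88 (SE 0.454, adjusted p = 0.00941) on 14 and 34 counts under the TARDBP hairpin against 5 to 10 counts in the 4 control libraries, a call lost without TARDBP hairpin replicate 2 (0.148). The summed level of the list was 712 and 725 CPM under the TARDBP hairpin, 1649 and 1725 CPM under control hairpin 1, and 1875 and 1852 CPM under control hairpin 2. Under the TARDBP hairpin, where this sum was lowest, CDKN1C was close to its level under control hairpin 2. Between the controls, 8 of the 12 were higher and 0 lower under control hairpin 2 by edgeR (22.8% and 20.4% of all tested).

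Both tested paralogs of PHLDA2 lie outside 11p15. PHLDA1 rose by 0.95 (SE 0.0928, adjusted p = 0.000111), with 78.0 CPM under the TARDBP hairpin, 28.7 CPM under control hairpin 1 and 57.2 CPM under control hairpin 2. PHLDA1 was thus higher than both controls, while PHLDA2 lay between them. PHLDA3 did not pass the test, at 0.17 (SE 0.0986, adjusted p = 0.176).

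Imprinted genes of other chromosomes moved in both directions. Of 35 tested, 9 rose and 13 fell against the mean of both controls (23.9% and 24.3% of all tested), with a median of -0.13. PEG10, a retrotransposon-derived gene, had 13.8 CPM under the TARDBP hairpin, 164 CPM under control hairpin 1 and 722 CPM under control hairpin 2, and fell by 4.64 (SE 0.111, adjusted p = 6.57e-07). Its neighbour TFPI2 fell by 2.73 (SE 0.150, adjusted p = 9.33e-06), and RTL1, another retrotransposon-derived gene, fell by 3.85 (SE 0.206, adjusted p = 8.86e-06). SNRPN, a splicing gene of the Prader-Willi region, rose by 0.96 (SE 0.0926, adjusted p = 0.000105). With the 4 control libraries pooled as 1 group, its adjusted p by edgeR was 0.436. PEG10 and IGF2 differed in opposite directions between the controls, with 2.14 for PEG10 (adjusted p = 1.64e-05) and -2.96 for IGF2 in control hairpin 2 against control hairpin 1.

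Genes with the most similar profile were found by the root mean square difference of log2 CPM over the 6 libraries, each gene centred on its own mean, among 12707 named genes, leaving out the symbols of microRNAs, other small RNAs and uncharacterised genes. For IGF2 they were INS-IGF2 (0.0691), which overlaps it, then FAM30A (1.02), ECEL1 (1.31), INSM2 (1.53) and DBH (1.55), against a median difference of 3.25 over all candidates. For H19 they were INS-IGF2 (0.406), FAM30A (0.676), INSM2 (1.12), SLC18A1 (1.18) and DBH (1.20), against a median of 2.82. MIR675, which was not a candidate, was closer to H19 than these, at 0.152. DBH and SLC18A1 are also in the noradrenergic marker list. FAM30A had 0.414 and 0.415 CPM under the TARDBP hairpin, 39.8 and 35.9 CPM under control hairpin 1, and 3.37 and 2.92 CPM under control hairpin 2, and so shared the 3 levels of H19 but not the spread between the control hairpin 2 libraries.

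For CDKN1C the nearest were PCDHGA9 (0.0791), TOX (0.121), RCAN3 (0.126), DCP2 (0.144) and FKBP1B (0.149), against a median of 0.68. TOX, for example, had 19.6 and 17.6 CPM under the TARDBP hairpin, 46.3 and 45.3 CPM under control hairpin 1, and 18.2 and 21.7 CPM under control hairpin 2. Among the members, H19 and IGF2 differed by 0.455, with 2 of all tested rows closer to H19. CDKN1C and KCNQ1OT1 differed by 0.271, with 174 rows closer to CDKN1C, so their likeness was shared with many other genes.

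TDP-43 is known to bind RNA with repeated UG, so stretches of alternating T and G were counted in the longest transcript of each member in GENCODE v29. A stretch was counted if it contained TGTGTGTG, and so had at least 8 bases. The 8-base stretch GTGTGTGT, which starts with G, was not counted. HOTS had no match in that annotation. IGF2 (5585 bases), H19 (2348 bases), CDKN1C (1936 bases) and PHLDA2 (955 bases) held 0 such stretches, while 30.4%, 12.3%, 9.80% and 3.98% of transcripts within 1.25 times their lengths, in the same order, held at least 1. KCNQ1OT1, at 91667 bases, held 8, or 0.0873 per 1000 bases, against 0.0709 per 1000 bases over the longest transcripts of 57133 genes. Its longest stretch, in capitals with a pair of bases on either side, lies at bases 72247 to 72260 of the transcript and is shown because it is the longest found in any member.
KCNQ1OT1 stretch: taGTGTGTGTGTGTGTat
Only the transcript sequences were searched, so introns removed by splicing were not covered. The relation of these stretches to the levels of the members was not tested. A match is a description of sequence and does not show binding.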

How the data were processed

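Ribosomal RNA-depleted total RNA was sequenced from 6 SH-SY5Y libraries in strand-specific kits, per the labels' protocols. Per the submitters' processing notes, reads passed through bcl2fastq and STAR 2.5.2b against hg19. Deposited were raw counts per gene symbol and per repeat family, whole numbers in 1 file per library. The counting tool, annotation, strand setting and handling of multiply matching reads were not given in the sources used here, so overlapping and antisense rows, and near-identical genes, are uncertain. Gene coordinates in hg19 are not given. Printed sequences are from RefSeq GRCh38.p14 and GENCODE v29.

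Of 28953 rows, 17163 passed edgeR's filterByExpr by group (minimum count 10, minimum total 15), of which 16202 were genes. The quasi-likelihood fit took all 6 libraries in 3 groups, in R 4.3.3 with edgeR 4.0.16 (TMM scaling, edgeR's default prior count, 3 residual degrees of freedom, biological coefficient of variation 10.5%). P-values are two-sided, adjusted by Benjamini and Hochberg over all rows tested. Rose and fell mean an adjusted p below 0.05, judged by the spread within each hairpin group and not between the control hairpins. Profiles used log2 CPM with a prior count of 2, for genes with a mean of at least 1.

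The members and gene lists were chosen with earlier results of these data known. From each list the text names up to 4 called genes with the lowest p against the mean of both controls, and all genes of any direction with 5 or fewer calls; it also names every called neighbour. CTCF, KCNQ1 and the profile examples FAM30A and TOX were named after their values were seen. Mitochondrial RNA quality genes had no row and were not analysed here. Values of some genes in the lists are not reported here singly. In simulated counts for the TARDBP hairpin against the mean of both controls, over 16894 rows, 56% of 1.5-fold and 79% of 2-fold changes were recovered, and 11 of 146 calls were of unchanged genes. Alternatives were DESeq2 1.42.0, RLE size factors, no filter, genes alone, a replicate block, pooled controls, another prior count and leaving out each library.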

Additional observations from a re-analysis of the deposited data

Results flagged for a closer look

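PHLDA2 moved in opposite directions against the 2 control hairpins. Its log2 fold change under the TARDBP hairpin was 1.56 against control hairpin 1 and -1.58 against control hairpin 2, and in both comparisons no TARDBP hairpin library overlapped a control library. The difference between these values was not tested, and both use the same TARDBP hairpin libraries. It equals the difference between the control hairpins, which was 3.15 for control hairpin 2 against control hairpin 1.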

How the results depend on the processing

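Member fold changes against each control hairpin, and between the controls, kept their sign in all 12 alternatives run for them; PHLDA2 against the mean of both controls changed sign in 5 of 13. RLE size factors, DESeq2, no filter, genes alone and the other prior count left every member fold change within its spread and every count within 1.5 times. Pooling the 4 control libraries as 1 group gave 2572 calls over all rows, -7.37 for IGF2, -6.06 for H19 and -0.74 for PHLDA2. It left 2 called neighbours of IGF2 and H19, 1 of CDKN1C, KCNQ1OT1 and PHLDA2, 5 imprint maintenance factors, 1 RNA regulator and 2 IGF genes. It also left 1 CDK inhibitor, 4 cyclins and kinases, 0 PHLDA2 paralogs and 8 other imprinted genes. Calls lost included SNRPN (adjusted p = 0.436), IGF2BP3 (0.253), DICER1 (0.211), STC2 (0.207), PHLDA1 (0.136), CCNA2 (0.117) and CTCF (0.115). Calls kept included CDKN1A (0.00336), PEG10 (0.0188) and UHRF1 (0.0417). Pooling counts the difference between the control hairpins as spread, which the main test does not. Its share in the loss of calls was not tested. Leaving out 1 library at a time gave 4328 to 7344 calls between the controls, 2 to 5 called neighbours of IGF2 and H19, 2 to 4 of CDKN1C, KCNQ1OT1 and PHLDA2, and 1 to 5 CDK inhibitors. With 1 library left in a group, that library is assumed to vary like the other groups.

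With the replicate number as a block, 7643 rows were called against the mean of both controls. The numbers do not pair the libraries by the labels, and deviations from the group means correlated at -0.36, -0.38 and 0.38 across 14245 rows for the 3 pairs of groups. Of the 15 nearest genes, 13 were shared with a prior count of 0.5. IGF2 rests on 13 counts under the TARDBP hairpin, which limits its fold change.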
